A study of Mus musculus and blank sample with 768 samples.

Results

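The GFP-negative tumour endothelial cells described here are single mouse cells sorted from tumours through the gate CD45- CD31+ GFP-, all of them on the 96-well plate named KM2. A well counted as a cell if its reads in genes numbered 50000 or more, if 1000 or more genes had any read, and if the mitochondrial share of reads did not exceed 25%. Of the 96 wells of the plate 84 passed, out of 592 that passed among the 768 wells of the whole series. The gate and plate chose these cells, and no measured expression value did, apart from the limits on quality. Each cell was sequenced after SMART-seq2, a full-length cDNA method, run with 20 instead of 18 amplification cycles, and its reads were counted per gene. The cells set beside them were sorted from tumours too: plates KM3 and KM4 hold GFP+ endothelial cells (CD45- CD31+ GFP+), which the labels call Csf1r lineage endothelial cells, with 84 and 85 cells kept. Plate KM1 holds tumour macrophages (CD45+ CD31- GFP-), with 81 cells kept. The strain, genotype, driver of the GFP mark, tumour model, age and number of animals are not given in the sources used here. Each gate is therefore 1 sample, or 2 plates in the case of the GFP+ cells, no test between gates was made, and a difference of gate and a difference of plate cannot be told apart. Values are in CPM, meaning that a gene's count was divided by all reads in genes and multiplied by 1000000, within 1 cell or, for summed values, over all cells of a plate. The intervals given cover counting error only.

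Endothelial cells line blood and lymphatic vessels. Arteries, capillaries, veins and lymphatics each carry a partly different gene set, and growing vessels are led by tip cells, which face the vascular endothelial growth factor VEGF, while stalk cells follow behind under Notch signalling. Tumour vessels are known for irregular branching, leakiness and regions of low oxygen, and lymphatic endothelium is set by the transcription factor Prox1.

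The 84 cells held between 58835 and 2672994 reads in genes, with a median of 827490, and between 1551 and 5945 genes with a read, with a median of 3825. Mitochondrial reads made up 1.47% to 18.1%, with a median of 2.91%. The median number of genes per cell was 2915.5 on plate KM3, 3171 on KM4 and 3328 on KM1, at median depths of 798549, 848441 and 867486 reads. Among the 12 wells left out, 10 held too few genes, 7 too few reads and 6 too large a mitochondrial share, and 4 held under 100 reads. One kept well, C8, went against its label: with 1054221 reads and 5761 genes it had no read in any of the 16 pan-endothelial and 13 blood-endothelial genes listed, whereas each of the other 83 cells had at least 8 of the 16 at 10 CPM or more. Well C8 instead held 4999.9 CPM of Lgals1, a lectin of many stromal cells, against at most 445 CPM in the other cells, and 191.6 CPM of Pdgfrb and 218.2 CPM of Col3a1, a pericyte receptor and a fibroblast collagen, of which the other cells had no read. Dkk3, Lrp1 and Axl, at 435.4, 333.9 and 206.8 CPM, were also read in it alone. Yet only 1 of 10 pericyte and 2 of 8 fibroblast genes listed stood at 10 CPM or more in it. Col1a1 and Dcn had no read, and the cell type of well C8 was not determined. It stays among the 84, as the gate chose it, and several of the counts that it enters are also given without it.

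The defining markers of endothelium were near universal in the GFP-negative cells. Pecam1, the CD31 antigen used in the gate (chr11:106654217-106750628 on the minus strand of GRCm38), had reads in 82 of 84 cells (97.6%, exact 95% binomial interval 91.7 to 99.7%), at 0, 952 and 4349 CPM in the lowest, median and highest cell. Cdh5, the adherens junction protein VE-cadherin (chr8:104101625-104144511, plus strand), also had reads in 82 cells, at 0, 321.9 and 3195 CPM. Both genes were thus well detected in the typical cell and missing in only 2. Flt1, VEGF receptor 1 (chr5:147561604-147726011, minus strand), ran from 0 through 963 to 6662 CPM with reads in 81 cells. Cldn5, a tight junction claudin (chr16:18776847-18778262, plus strand), stood at 0, 2684.3 and 13153 CPM with reads in 81 cells. Plvap, the protein of the diaphragms that span endothelial pores (chr8:71497765-71511752, minus strand), was the least general of the 5: 72 cells (85.7%, 76.4 to 92.4%) had reads, and the lowest, median and highest values were 0, 776 and 6570.3 CPM. Per exon length the order of the 5 was Cldn5 with 5628 TPM (the length-scaled share of transcripts, from the summed reads), Plvap with 1390.1, Pecam1 with 403, Flt1 with 200.5 and Cdh5 with 179.3. Summed over all cells, Plvap stood at 1194 CPM in GFP-negative cells, against 1569.7 and 1993 CPM on the GFP+ plates and 0.0125 CPM in macrophages. The share of macrophages with any Pecam1 read was 11 of 81 cells, with 5.91 CPM summed over the plate. The like figures for Cdh5 were 1 cell and 0.0125 CPM, which gives the summed level of such reads in cells gated against CD31.

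Genes of other cell types were mostly at or near 0, with exceptions among haematopoietic and pericyte genes. Ptprc, the CD45 antigen gated against, had no read in 84 cells, which allows a share of cells with a read of up to 3.57% (3 of 84), while it summed to 334.2 CPM in macrophages with reads in 74 cells. Csf1r, the receptor for colony stimulating factor 1 that names the GFP+ lineage, had reads in 1 cell. Summed over all cells of a plate it stood at 1.24 CPM, against 1.55 and 1.35 CPM on the GFP+ plates and 1384 CPM in macrophages. All 6 epithelial, all 6 melanocyte, all 5 B cell and all 5 neutrophil markers listed had no read in any cell. The 12 macrophage markers summed to between 0 and 250.7 CPM per cell, with a median of 0, in GFP-negative cells and to between 13682 and 73921 CPM, with a median of 42045, in macrophages. The 7 haematopoietic genes listed summed to a median of 269.9 CPM per GFP-negative cell, against 4769 CPM in macrophages. At least 1 of them stood at 10 CPM or more in 66 of the 84 cells. Among them Lcp1 had reads in 58 of 70 and 8 of 13 cells of the larger expression groups described below. Of 10 pericyte genes 7 were at 0, including Rgs5, Cspg4 and Des, which are common markers of pericytes and mural cells. The exceptions were Abcc9, in 36 cells at 118.2 CPM, and Kcnj8, in 11 cells at 26.2 CPM, the subunits of 1 potassium channel, and 10 of the 11 cells with Kcnj8 had Abcc9 too. The third, Pdgfrb, had reads in well C8 alone.

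Of the wider lists that hold the markers, 15 of 16 pan-endothelial and 11 of 13 blood-endothelial genes had reads in 50% or more of the cells, where 4.82% of all 51734 gene symbols in the table did. Egfl7, a secreted endothelial factor, had reads in 83 cells at 1481 CPM, and Esam, an adhesion molecule, in 83 cells at 1312 CPM. Cd34, a sialomucin of vessels and progenitors, summed to 1824 CPM with reads in 83 cells. Erg, an ETS-family transcription factor of endothelium, was the exception among the pan-endothelial genes, with reads in 40 cells at 30.2 CPM. Of 14 endothelial transcription factors 9 reached 50% of the cells, led by Elk3 in 84 cells, Sox18 in 76 and Ets1 in 76. Basement membrane genes were detected nearly throughout, 12 of 13 in 50% or more of the cells, and their 13 members summed to a median of 11524 CPM per cell, against 12287 and 13058 CPM on the GFP+ plates and 0 CPM in macrophages. Sparc, a matrix-binding glycoprotein, had reads in every cell at 4646 CPM, and Col4a1, a chain of collagen IV, in 83 cells at 2088 CPM. Junction and caveolar genes were also general, with 8 of 12 and 7 of 9 found in 50% or more of the cells, among them Ctnnb1, beta-catenin, in 81 cells and Cav1, caveolin 1, in 58. Vim, the filament protein vimentin, had reads in every cell at 2547 CPM, and Snai1, a factor of the mesenchymal shift, in 35 cells at 70.8 CPM, while Twist1 and Acta2 had no read. Against macrophages, summed values of all 16 pan-endothelial genes were at least 2-fold higher in GFP-negative cells, where 27.5% of all 11791 genes measured on either plate were higher and 19.3% lower by that measure.

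The promoters of the endothelial genes were searched for the core letters of ETS factors, a family that several of the listed transcription factors belong to. The letters AGGAAG, searched on both strands in the 250 bases before each RefSeq start (GRCm38.p6), were present in 7 of 13 promoters of pan-endothelial genes and 6 of 9 of blood-endothelial genes, or 53.8% and 66.7%, against 29.5% of all 32851 promoters of the same length. RefSeq starts were matched for 9 of the 16 pan-endothelial genes and 8 of the 13 blood-endothelial ones. Egfl7, with Esam, Ramp2 and Cd93 the most widely detected of the pan-endothelial genes, has 3 starts in the table, and the first 2 are shown to let the letters be seen, at chr2:26580833-26581082 and chr2:26583615-26583864 on the plus strand, with matches in capitals (CTTCCT is the match on the other strand).
Egfl7, first start: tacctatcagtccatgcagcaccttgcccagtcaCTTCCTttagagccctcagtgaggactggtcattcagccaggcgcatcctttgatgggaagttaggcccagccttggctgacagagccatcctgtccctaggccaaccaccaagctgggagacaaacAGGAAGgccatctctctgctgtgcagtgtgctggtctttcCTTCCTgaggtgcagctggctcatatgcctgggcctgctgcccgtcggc
Egfl7, second start: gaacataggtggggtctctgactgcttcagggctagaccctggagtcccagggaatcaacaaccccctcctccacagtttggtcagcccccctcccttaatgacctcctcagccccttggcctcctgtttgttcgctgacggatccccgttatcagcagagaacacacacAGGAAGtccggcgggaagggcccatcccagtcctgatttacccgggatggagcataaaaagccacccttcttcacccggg
The windows hold 3 matches and 1 match, and the window of the last start holds none. A match of letters is a description of the sequence and shows no binding.

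VEGF receptors were detected in most cells and VEGF family ligands in few. Among VEGF receptors, Flt1 was followed by Kdr, VEGF receptor 2, in 74 cells at 389.5 CPM and by Flt4, VEGF receptor 3, in 74 cells at 133.2 CPM. Per exon length the order was Flt1 with 200.5 TPM, Kdr with 99.8 and Flt4 with 37.4. The co-receptors Nrp1 and Nrp2 had reads in 62 and 45 cells. By contrast the ligand Vegfb had reads in 11 cells, Vegfa in 4, Vegfd in 1, Vegfc in 10 and Pgf, placental growth factor, in 9. In the angiopoietin pathway the receptor genes Tie1 and Tek had reads in 75 and 62 cells, the phosphatase Ptprb, which acts on Tek, in 77, and the ligand Angpt2 in 27 at 262.7 CPM, while Angpt1 had no read. Of 12 Notch genes, Notch1 led with 71 cells, followed by the target Hes1 with 63, the ligand Dll4 with 58 and Notch4 with 54. The ligand Jag1 had reads in 44 cells, and the targets Hey2 and Heyl had none.

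**Figure D1:**
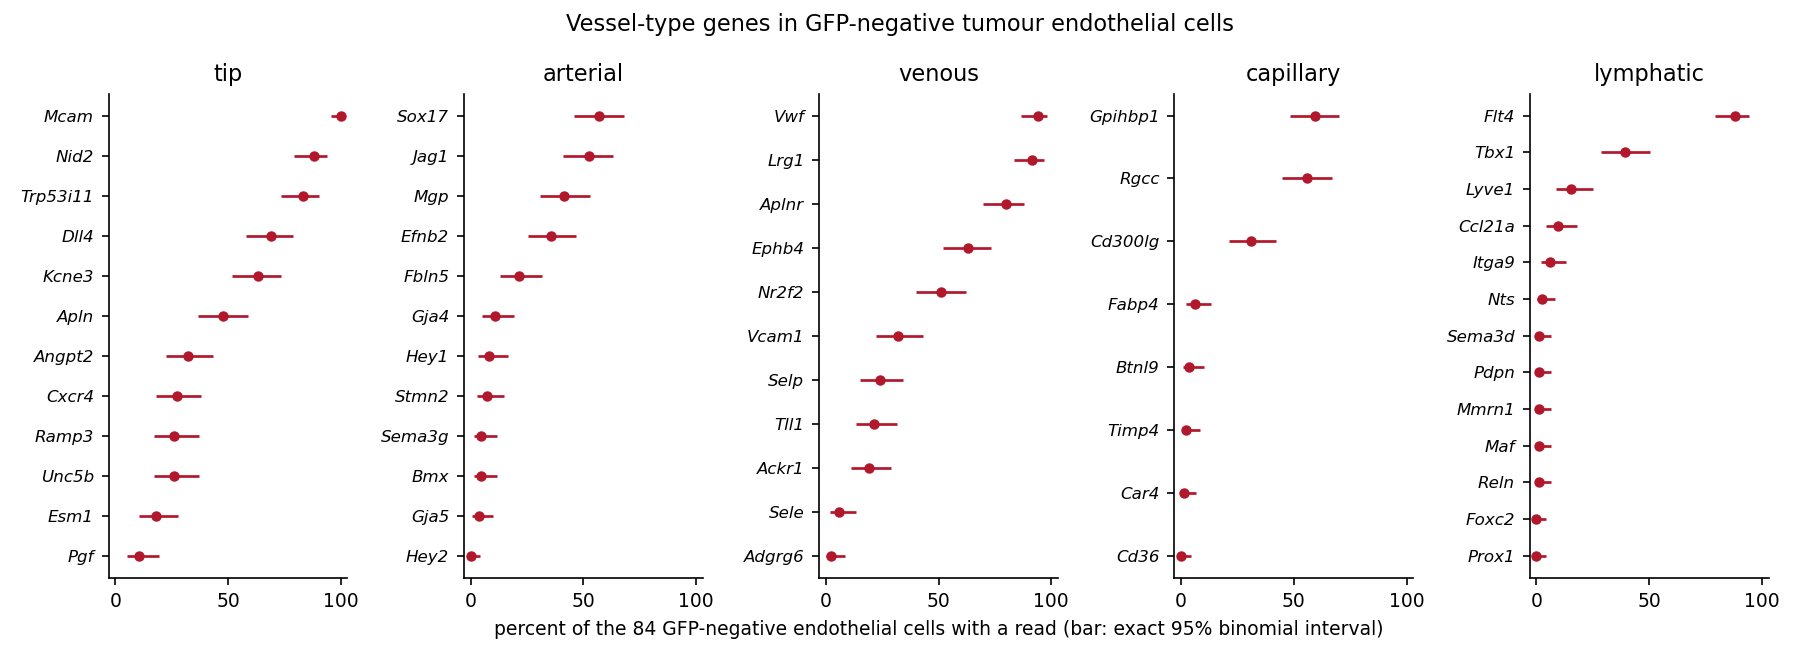
Percent of the 84 GFP-negative cells with a read (horizontal axis) for each gene of the tip, arterial, venous, capillary and lymphatic lists; bars are exact 95% binomial intervals. Tip genes such as Mcam and Trp53i11 and venous genes such as Vwf and Lrg1 lie far right, and of the lymphatic genes Flt4 alone exceeds 50%.

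Lists of genes of vessel type were counted per cell. A cell was taken to carry a list when at least 3 members stood at 10 CPM or more. By that count 82 of 84 cells (97.6%, 91.7 to 99.7%) carried the tip list of 12 genes and 79 (94.05%, 86.7 to 98.04%) the venous list of 11. Well C8, with no pan-endothelial read, met both counts, with 3 tip and 4 venous members, so that they do not mark endothelial identity; without it 81 and 78 of 83 cells did. The arterial list of 12 was carried by 33 cells (39.3%, 28.8 to 50.5%), the capillary list of 8 by 13 (15.5%, 8.51 to 25.01%) and the lymphatic list of 13 by 9 (10.7%, 5.02 to 19.4%). The lists overlap within cells: 30 of the 33 cells that carried the arterial list carried the venous list too. Of the 8 genes of high endothelial venules, the lymph node vessels that admit lymphocytes, no cell carried 3, and Glycam1, Chst4, Fut7 and Gcnt1 had no read.

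The most widespread venous genes were Vwf, the von Willebrand factor, in 79 cells at 696 CPM and Lrg1, a secreted leucine-rich glycoprotein, in 77 cells at 1999 CPM. Ephb4, the ephrin receptor of veins, had reads in 53 cells and Nr2f2, the transcription factor of venous fate, in 43 (51.2%, 40.04 to 62.3%). Aplnr, the apelin receptor, is on the venous list too and had reads in 67 cells. These genes were thus found in 43 to 79 cells, and the genes of postcapillary venules in fewer. They did not all go with Nr2f2. In the groups of 13 and 70 cells described below, Nr2f2 had reads in 7.69% and 58.6%, and Aplnr in 46.2% and 87.1%. Ephb4 had reads in 69.2% and 61.4%, with means of 1314 and 649 CPM for Vwf and 3824 and 1877 CPM for Lrg1. That grouping is not stable. Ackr1, the chemokine-binding Duffy receptor, had reads in 16 cells, at 0.844, 226.5 and 2223 CPM in the lowest, median and highest of them. Selp, P-selectin, had reads in 20 cells and Vcam1, which binds leukocyte integrins, in 27. Nr2f2 had reads in 13 of the 16 cells with Ackr1 (81.2%) and in 30 of the 68 without (44.1%), and Selp in 7 (43.8%) and 13 (19.1%). Cells with Ackr1 were also sequenced more deeply, with a median of 1134053.5 reads against 768745.5 in those without, and the part of depth in these shares was not tested.

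Arterial genes split into widely detected and rare members. Sox17, a transcription factor of arterial endothelium, had reads in 48 cells, Jag1 in 44, Mgp, the matrix Gla protein, in 35 and Efnb2, the arterial ephrin, in 30. Gja4, the connexin of arterial junctions (chr4:127311421-127314039, minus strand), had reads in 9 of the 84 cells, where its lowest, median and highest values were 63.3, 881 and 3300.4 CPM. Gja5, the other arterial connexin listed, had reads in 3 cells. The 9 cells with Gja4 thus each held 63.3 CPM or more, while Gja4 summed to 0.0125 CPM over all macrophages.

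Other genes divided along the same line. Cxcl12, a chemokine of arterial endothelium, had reads in 7 of the 9 cells with Gja4 (77.8%) and in 6 of the 75 without (8%), and Sox17 in 8 (88.9%) and 40 (53.3%). Hey1, a Notch target, had reads in 3 of the 9 (33.3%) and 4 of the 75 (5.33%). On the other side, Apln, the apelin ligand of tip cells, had reads in 0 of the 9 and 40 of the 75 (53.3%), and Ackr1 in 0 and 16 (21.3%). Trp53i11 had reads in 2 of the 9 (22.2%) and 68 of the 75 (90.7%), and Nr2f2 in 2 (22.2%) and 41 (54.7%). Cells with and without Gja4 had median depths of 709144 and 931361 reads. These pairs were read off after the values were seen and 9 cells are few, so the shares are a description.

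Capillary genes were led by Gpihbp1, which anchors lipoprotein lipase, in 50 cells at 299.1 CPM and Rgcc, a regulator of the cell cycle, in 47 cells at 207.2 CPM. Cd300lg, a receptor of capillary endothelium, had reads in 26 cells. Fabp4, a fatty acid binding protein, had reads in 5 cells, at 9.85, 85.3 and 115.4 CPM in the lowest, median and highest of them, and the fatty acid transporter gene Cd36 had none.

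Lymphatic genes were mostly at or near 0. Prox1, the defining transcription factor, and Foxc2, a factor of lymphatic valves, had no read in 84 cells, and Pdpn, the membrane protein podoplanin, Mmrn1, Reln, Maf and Sema3d had reads in 1 cell each. Flt4 was widespread, as in the receptor account above. Tbx1, a transcription factor of lymphatic and pharyngeal development (chr16:18580979-18590671, minus strand), had reads in 33 cells, at 0.936, 156.1 and 785 CPM in the lowest, median and highest of them. Lyve1, the hyaluronan receptor of lymphatic endothelium, which some macrophages carry too (chr7:110850607-110863239, minus strand), had reads in 13 cells, at 81.2, 274.98 and 873 CPM. Ccl21a, a chemokine that draws Ccr7-bearing leukocytes (chr4:42772860-42773993, minus strand), had reads in 8 cells, at 3.38, 2165 and 7321 CPM. No macrophage had a read of any of the 3. Ccl21a has near-identical copies in the mouse genome, between which the counting may have split reads, and its value is uncertain for that reason.

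The 3 genes were counted in the same cells. Of the 46 cells with a read of Tbx1, Lyve1 or Ccl21a, 38 had exactly 1 of the 3, 8 had 2 and 0 had all 3. Tbx1 had reads in 4 of the 8 cells with Ccl21a (50%) and 29 of the 76 without (38.2%), and in 3 of the 13 with Lyve1 (23.1%) and 30 of the 71 without (42.3%). Every one of the 13 cells with Lyve1 also had Flt1 reads, and 10 had Plvap; of the 8 with Ccl21a all had Flt1 and 7 had Plvap. Ackr1 had reads in 5 of the 8 cells with Ccl21a (62.5%) and in 11 of the 76 without (14.5%). Other venous and high endothelial venule genes looked at went the other way. Selp had reads in 1 of the 8 (12.5%) and 19 of the 76 (25%), and Chst2 in 1 (12.5%) and 24 (31.6%). Enpp2 had reads in 1 (12.5%) and 15 (19.7%), and Madcam1 in 0 and 2 (2.63%). On the plate, 6 of the 13 cells with Lyve1 lay in row A, 3 each in rows B and G and 1 in row F, while Tbx1 ran from 1 of 10 cells in row H to 9 of 11 in row E. The part of plate position in these counts was not tested. Summed values of Tbx1 were 58.7 CPM in GFP-negative cells, against 4.09 and 11.1 CPM on the GFP+ plates, with reads in 6 and 7 of their cells. Lyve1 summed to 49.96 CPM against 5.18 and 22.3 CPM, with reads in 9 and 9 GFP+ cells.

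Tip cell genes ranged from general to sharply divided. Mcam, the adhesion molecule CD146, had reads in every cell at 867 CPM, Nid2, a basement membrane nidogen, in 74 at 616 CPM and Trp53i11 in 70 at 1569.7 CPM. Dll4 and Kcne3, a potassium channel subunit, had reads in 58 and 53 cells. The divided genes were Apln in 40 cells, Angpt2 in 27, Esm1, the proteoglycan endocan, in 15 and Pgf in 9. Apln (chrX:48025146-48034853, minus strand) ran from 0.872 through 375.6 to 4248 CPM among the cells that had it, with no read in the other 44. Its receptor Aplnr had reads in 67 cells, 36 of the 40 with Apln (90%) and 31 of the 44 without (70.5%).

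Several genes, picked after their values were seen, were found in a larger share of the cells with Apln. Adm, the vasodilator peptide adrenomedullin, had reads in 31 of the 40 cells with Apln (77.5%) and in 12 of the 44 without (27.3%). Angpt2 had reads in 19 (47.5%) and 8 (18.2%), with means of 470.4 and 36.6 CPM. Trp53i11 had reads in 39 (97.5%) and 31 (70.5%), with means of 2206 and 1008 CPM. The cells with Apln were deeper, at a median of 1053656.5 reads against 743931.5, and were uneven over the plate, with 10 of 11 cells in row A and 2 of 11 in each of rows C and D. The part of depth and plate position in these shares was not tested.

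Genes induced by low oxygen and genes of glycolysis were abundant. Of 12, 7 had reads in 50% or more of the cells, and 78 cells (92.9%) had at least 3 at 10 CPM or more. Ldha, lactate dehydrogenase A, had reads in 78 cells at 1231 CPM, against 740.5 and 686 CPM on the GFP+ plates, and Pgk1, another glycolytic enzyme, in 61 cells at 328.8 CPM, against 344.2 and 253.8 CPM. None of the 11 list genes measured on these plates was 2-fold apart from both, and their median log2 difference was 0.10 against KM3 and 0.40 against KM4, where the medians over all genes measured were 0.13 and 0.12. Slc2a1, the glucose transporter GLUT1, had reads in 74 cells at 0, 523 and 8014 CPM in the lowest, median and highest cell. Its sum was 1008 CPM, against 549 and 438 CPM on the GFP+ plates and 90.3 CPM in macrophages. Ankrd37 had reads in 45 cells, and in 31 of the 43 with Adm (72.1%) against 14 of the 41 without (34.1%). Vegfa and Car9, carbonic anhydrase 9, had reads in 4 cells and 1 cell.

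The level of the hypoxia list, the mean log2(CPM + 1) over its measured genes, moved with that of the tip list from cell to cell. Over the 84 cells, which share a plate and differ in depth, Spearman's rho was 0.63, and it was 0.64 after each of 82 cells was thinned to 100000 reads; the lists share no member. After the mean of each plate row was subtracted rho was 0.63, and without well C8 it was 0.63. The levels of the tip and hypoxia lists had rho of 0.22 and 0.19 with the number of genes detected. For the arterial list rho was weak, at -0.22 with hypoxia and -0.17 with tip; within the 70 cells of the largest expression group the first was 0.0041, and nothing is read from either. Other pairs of lists without shared members that moved together were class I presentation with interferon genes at 0.49, S phase with G2/M genes at 0.48 and the capillary with the tip list at 0.46. Across single genes, only the 5066 ranked for variability below were used, which left out rarer list members such as Gja4. The median pairwise rho over these 5066 was 0.03. It was 0.27 within 7 of the 12 hypoxia genes and 0.11 within 9 of the 12 tip genes. Within 4 of the 12 arterial genes it was 0.02 and within 6 of the 11 venous genes 0.01, both below the value over all 5066. The whole lists were not tested in this way.

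**Figure D2:**
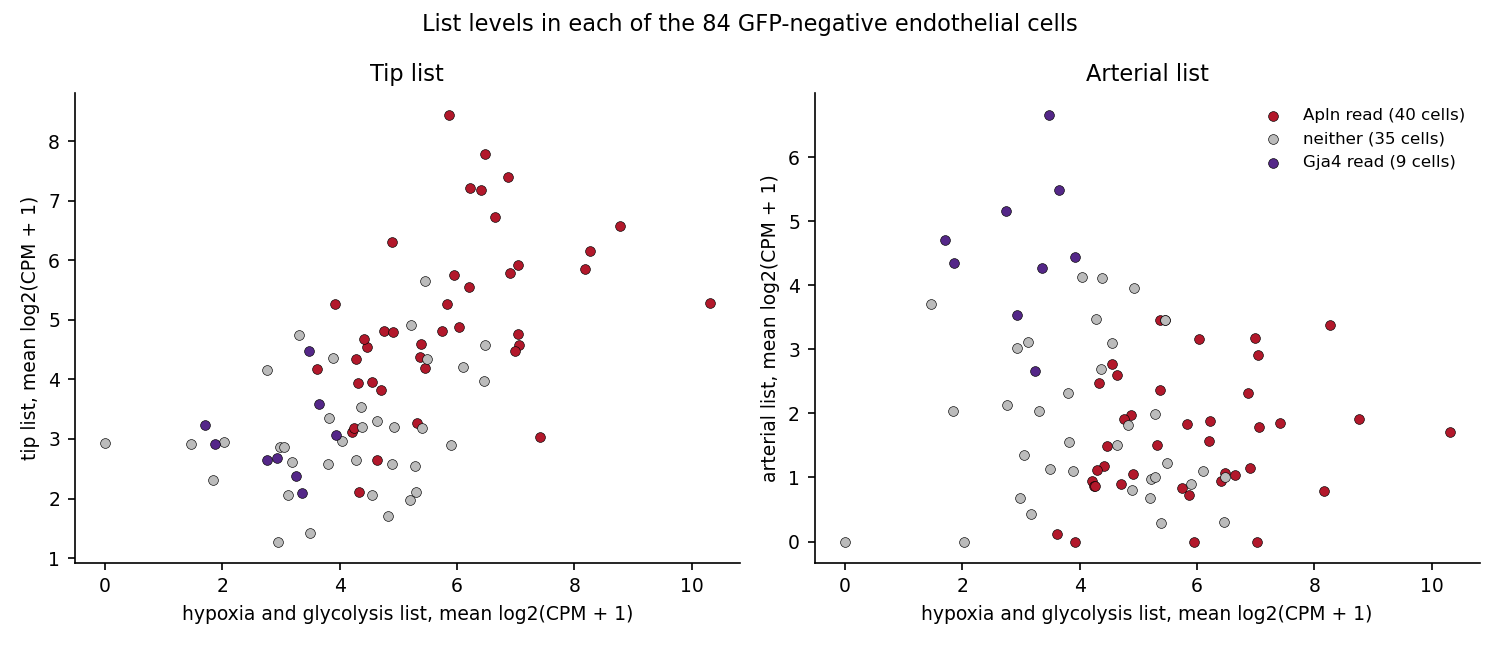
Level of the tip list (left) and of the arterial list (right) against the hypoxia list, each a mean log2(CPM + 1) over its measured genes, with 1 point per GFP-negative cell. Cells with an Apln read (red, 40 cells) lie mostly to the upper right in the left panel, where Apln is itself a list member, cells with a Gja4 read (purple, 9 cells) lie low in it and high in the right panel, whose list holds Gja4, and 35 cells had neither.

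The letters ACGTG, the core that hypoxia-inducible factors bind, were counted in the promoters of both lists. Searched on both strands in the 250 bases before the start, the letters were present in 12 of 16 promoters of 11 hypoxia list genes (75%) and 1 of 12 promoters of 10 tip list genes (8.33%), against 16.6% of all 32851. The sequences below, from RefSeq on GRCm38.p6, show Ldha and Ankrd37 of the hypoxia list, each with matches, and the tip genes Trp53i11 and Apln; capitals mark the letters and the overlap of matches on both strands.
Ldha: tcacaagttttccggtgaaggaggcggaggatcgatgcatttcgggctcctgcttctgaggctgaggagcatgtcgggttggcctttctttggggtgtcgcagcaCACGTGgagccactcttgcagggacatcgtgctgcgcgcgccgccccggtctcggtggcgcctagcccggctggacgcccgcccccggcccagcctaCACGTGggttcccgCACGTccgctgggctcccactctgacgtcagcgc
Ankrd37: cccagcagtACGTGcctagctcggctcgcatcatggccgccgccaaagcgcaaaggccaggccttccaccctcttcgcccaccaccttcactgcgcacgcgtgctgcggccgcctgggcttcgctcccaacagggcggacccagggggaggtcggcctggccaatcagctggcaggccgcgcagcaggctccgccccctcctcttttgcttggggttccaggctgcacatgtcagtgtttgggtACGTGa
Trp53i11: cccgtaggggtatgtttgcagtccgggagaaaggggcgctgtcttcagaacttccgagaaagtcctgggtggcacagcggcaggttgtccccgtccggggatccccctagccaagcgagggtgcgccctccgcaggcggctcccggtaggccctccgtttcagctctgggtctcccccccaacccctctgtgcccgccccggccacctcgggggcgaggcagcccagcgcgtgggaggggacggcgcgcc
Apln: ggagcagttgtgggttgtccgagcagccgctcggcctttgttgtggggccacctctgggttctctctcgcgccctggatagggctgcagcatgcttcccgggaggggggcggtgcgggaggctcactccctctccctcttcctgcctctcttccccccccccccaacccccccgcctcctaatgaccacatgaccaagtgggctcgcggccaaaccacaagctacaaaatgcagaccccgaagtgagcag
They lie at chr7:46845554-46845803 on the plus strand (Ldha, 5 matches), chr8:45999851-46000100 on the minus strand (Ankrd37, 2 matches), chr2:93187298-93187547 on the plus strand (Trp53i11, 0 matches) and chrX:48034854-48035103 on the minus strand (Apln, 0 matches). A second start of Ldha has no match. That the letters are absent from a window says nothing of the factors that act on the gene elsewhere.

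Genes facing the immune system were led by class I antigen presentation. B2m, the light chain of class I molecules, H2-D1 and H2-K1 had reads in all 84 cells, at 3376, 3288 and 2029 CPM. The median cell held 8550 CPM over the 9 class I genes, against 6439 and 6930 CPM on the GFP+ plates and 10033 CPM in macrophages. Class II genes were sparse: H2-Ab1 had reads in 30 cells at 50.7 CPM and the invariant chain Cd74 in 26 at 93.6 CPM, against 6477 CPM of Cd74 in macrophages, and the master regulator Ciita had no read. Among interferon-response genes Bst2, a membrane protein that tethers virus particles, had reads in 64 cells at 145.6 CPM. Cxcl9, a chemokine induced by interferon gamma, had reads in 21 cells, at 1.49, 329.7 and 3524 CPM in the lowest, median and highest of them. Gbp2, a guanylate-binding protein, had reads in 14 of those 21 cells (66.7%) and in 24 of the 63 without Cxcl9 (38.1%). Among adhesion genes Icam2 had reads in 75 cells, Icam1 in 28 and Sele, E-selectin, in 5. Lgals9, a lectin counted with checkpoint ligands, had reads in 82 cells at 757 CPM, and Cd274, PD-L1, in 3, while Cd80, Cd86, Fasl, Ido1 and Pdcd1lg2 had none.

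Cell cycle genes were present in a minority of cells. At least 3 of 14 G2/M genes stood at 10 CPM or more in 13 cells (15.5%, 8.51 to 25.01%) and at least 3 of 13 S phase genes in 31 (36.9%, 26.6 to 48.1%), with 9 cells in both. Well C8 was in both counts, and without it they were 12, 30 and 8 of 83 cells. Mki67, a protein of cycling cells, had reads in 12 cells and Top2a, the topoisomerase of mitotic chromosomes, in 8. Of the 13 cells with G2/M genes 12 carried the tip list too, where 82 of all 84 did, and without well C8 11 of 12 and 81 of 83. Summed values were 37.3 CPM for Mki67, against 81.9 and 105.6 CPM on the GFP+ plates, while Top2a stood at 66.5 CPM, against 95.3 and 91.8 CPM. The whole lists did not follow these 2 genes. Over all cells of the plate the 14 G2/M genes summed to 690 CPM, against 665.9 and 800.8 CPM on the GFP+ plates. The 13 S phase genes summed to 891 CPM, against 780 and 775 CPM. Genes of the early response to cell handling were common, with 7 of 13 found in 50% or more of the cells. Fos, the immediate early transcription factor, had reads in 45 cells at 0, 74.1 and 6132 CPM in the lowest, median and highest cell. Its sum was 698 CPM, against 262.6 and 361.9 CPM on the GFP+ plates and 1912 CPM in macrophages. The level of these stress genes had a rho of 0.43 with the venous list over the 84 cells.

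Variation within the plate was ranked by the spread of each gene beyond the usual for its mean (the residual of the squared coefficient of variation, CV, on mean CPM), over the 5066 genes whose mean was 20 CPM or more and that had reads in 25% or more of the cells. The median CV was 1.69. Genes of predicted names, ribosomal proteins and the mitochondrial genome were passed over in naming. Among the 20 genes that led were matricellular and secreted vessel genes (Cyr61, Ctgf, Igfbp5, Mgp and Scgb3a1), tip genes (Apln and Angpt2), the stress genes Fos and Hspa1a, the chemokine gene Cxcl9, and Slc2a1. Scgb3a1, a secretoglobin, had reads in 44 cells and ran from 0 through 2.33 to 7346 CPM. Cyr61, a matricellular protein, ran from 0 through 0 to 6008 CPM with reads in 27 cells, and Igfbp5, an insulin-like growth factor binding protein, from 0 through 0 to 4496 CPM with reads in 38. Of these genes most cells have little or none and a few have over 1000 CPM.

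Some of the 20 rested on 1 well each. The highest, Lars2, a mitochondrial leucyl-tRNA synthetase, owed 50.9% of its total to well D4, which had 58835 reads and 35353 CPM of it; its mean was 827 CPM with that well and 411 CPM without, and its CV 4.63 and 0.917. Lgals1 owed 51.7% to well C8, and Sh2d5 and Pcsk7 owed 53.9% and 44.8% to well D8, which had 74734 reads and 1551 genes. Under stricter limits on cells 15 of the 20 stayed among the leading 20, after thinning 14 and without well C8 19. At the even end, the 10 least variable genes with a mean of at least 100 CPM, with ribosomal protein, predicted and mitochondrially encoded genes passed over, included Cox7c, Cox6b1, Uqcrq and Ndufa7, subunits of the respiratory chain, and Mrpl52, of the mitochondrial ribosome. Fau, which encodes a ubiquitin-like protein fused to a ribosomal one, had the lowest spread for its mean among these 10, at 0, 269.4 and 688 CPM in the lowest, median and highest cell and a CV of 0.470.

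**Figure D3:**
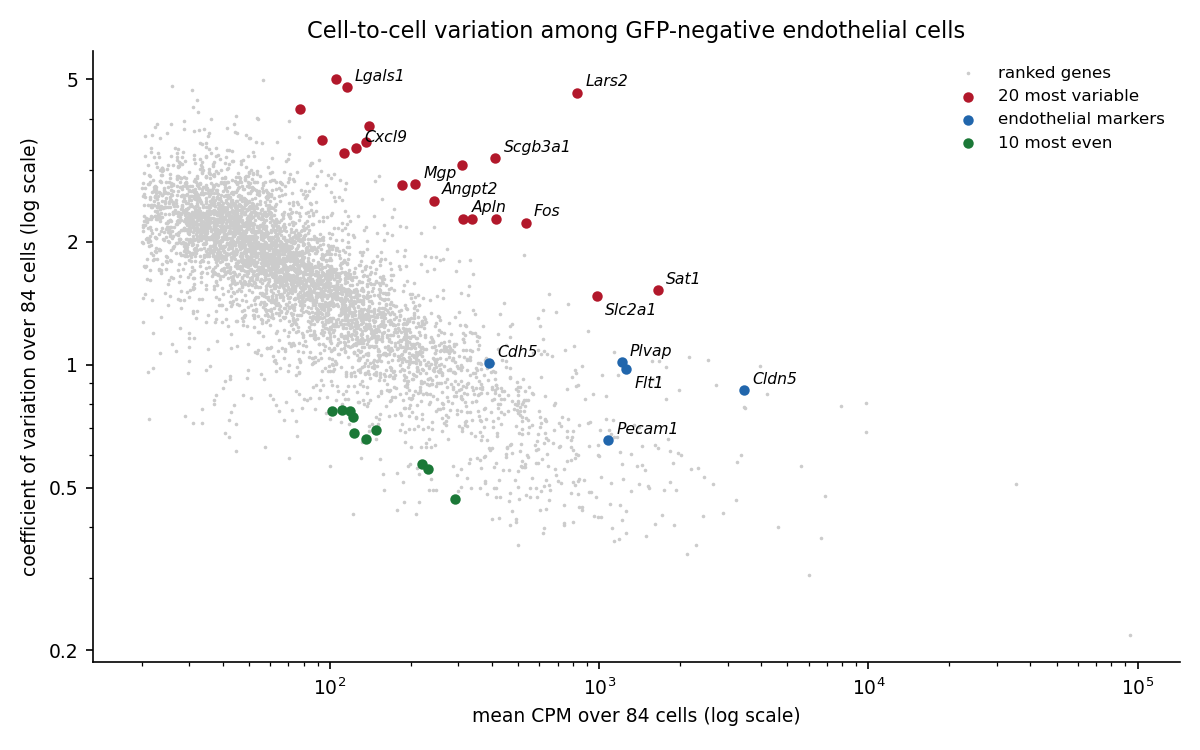
Coefficient of variation across the 84 GFP-negative cells against mean CPM, both on log axes, for 5066 genes (grey); the 20 most variable genes for their mean are red, the markers blue and the 10 most even green. The 20 most variable lie along the upper edge of the cloud, and the 5 markers, with CVs of 0.655 to 1.02, lie at or above its middle for their mean.

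Grouping the cells by 1000 variable genes outside all lists (Ward's method on 10 principal components) gave groups of 70, 13 and 1 cell, the last being well D8. The group of 13 had lower medians of reads and genes than that of 70, 601072 against 972996 and 3115 against 4041.5, and higher shares of mitochondrial reads, 4.04% against 2.72%. As a description, Gja4 had reads in 53.8% of the 13 and 2.86% of the 70, Apln in 7.69% and 55.7%, Angpt2 in 0% and 38.6%, and Trp53i11 in 23.1% and 94.3%. Of the tip list, Kcne3, Nid2, Ramp3 and Pgf also had reads in a smaller share of the 13, and Mcam in all cells. Other tip genes went the other way: Unc5b in 61.5% and 20%, Cxcr4 in 46.2% and 24.3%, Dll4 in 76.9% and 67.1% and Esm1 in 23.1% and 17.1%. With 2 or 4 groups, or with list genes kept in, all 13 stayed in a group, of 13 to 17 cells. When well C8 was left out, the groups held 76, 6 and 1 cells and 7 of the 13 lay in that of 76, so the grouping is not stable to this 1 well. The shares within the groups of 13 and 70 rest on it. The earlier shares in cells with and without Gja4 or Apln do not.

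Most listed genes, like most genes measured, were not 2-fold apart from both GFP+ plates in the same direction. Summed values were at least 2-fold higher than on both plates for 505 of 11275 measured genes, or 4.48%, and lower for 444, or 3.94%, with 1.92% and 1.56% when 5 CPM in place of 1 was added to each value. The GFP+ plates KM3 and KM4 differed 2-fold either way in 19.9%, a share of another form, since it sets 1 plate against 1. None of the 16 pan-endothelial, 9 caveolae and 13 basement membrane genes was apart from both plates. Among vessel genes the higher ones included Tbx1 and Lyve1, given above, and Ccl21a at 296.9 CPM, against 18.6 and 11.999 CPM, of which 1 cell gave 32.9% of the total over cells. Sox17 was higher too, at 160.1 CPM in 48 cells, against 68.9 and 58.3 CPM in 18 and 29 cells. With cells thinned to 100000 reads Sox17 had reads in 46 of 82, against 15 of 82 and 28 of 85. Also higher was Scgb3a1 at 257.7 CPM, against 60.96 and 68.02 CPM. Enpp2, the enzyme autotaxin, stood at 54.9 CPM, against 9.37 and 11.3 CPM. Of the genes best known from leukocytes, 1 of 4 haematopoietic and 1 of 4 macrophage genes measured were higher, while 1 of the macrophage and 1 of 4 class II genes were lower. The higher ones were Cd53, a tetraspanin, at 16.6 CPM in 9 cells, against 0 and 2.95 CPM on the GFP+ plates and 613 CPM in macrophages, and Ctss, a cathepsin, at 6.04 CPM, of which 1 cell gave 54.6%. The lower ones were Fcer1g, an Fc receptor chain, at 0.0775 CPM, against 9.75 and 23.6 CPM, and H2-Eb1 at 4.95 CPM, against 29.8 and 18.4 CPM.

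Genes lower than on both plates included 3 of the 5 capillary genes measured. Fabp4 summed to 3.76 CPM in 5 GFP-negative cells, against 145.3 and 111.9 CPM in 28 and 30 GFP+ cells, and after thinning it had reads in 5, against 25 and 28 cells. Gpihbp1 summed to 299.1 CPM, against 755 and 642 CPM, and Cd300lg to 45.5 CPM, against 139.9 and 151.8 CPM. Outside that list, Kcnj8 summed to 26.2 CPM, against 192.2 and 198.1 CPM, and the water channel gene Aqp1 to 11.2 CPM, against 106.1 and 104.6 CPM. Flt4 summed to 133.2 CPM, against 272.7 and 311.03 CPM, and its ligand Vegfc to 20.2 CPM, against 69.1 and 50.2 CPM. Lymphatic list genes therefore lay on both sides, with Tbx1, Lyve1 and Ccl21a higher and Flt4 and Maf lower. The median difference over all measured genes was 0.13 on the log2 scale against KM3 and 0.12 against KM4. GFP-negative cells had more genes detected per cell than either GFP+ plate, and the part of this in the differences was not tested.

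**Figure D4:**
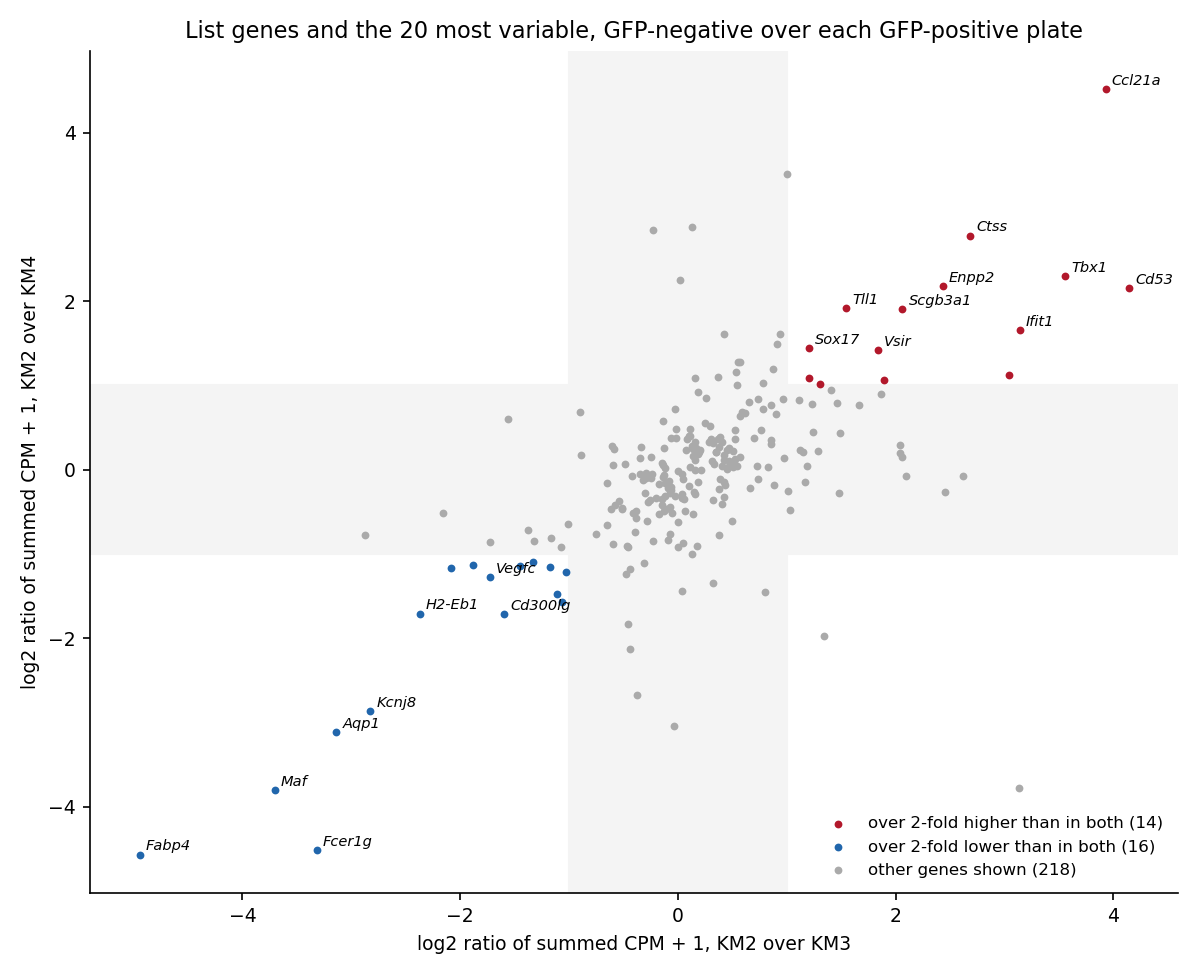
Log2 ratio of summed CPM (1 added) of GFP-negative cells over GFP+ plate KM3 (horizontal) and over KM4 (vertical) for list genes and the 20 most variable genes; grey bands mark values within 2-fold. Of the genes drawn 14 were higher than on both plates, 16 were lower and the rest were neither; Ccl21a, Tbx1 and Cd53 lie at the upper right and Fabp4, Aqp1 and Kcnj8 at the lower left.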

How the data were processed

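Single cells were sorted into 96-well plates, and the authors deposited raw counts of reads per gene and well, with plates KM1 to KM4 in 1 table. The counts have no molecular identifiers, so reads of 1 cell are not independent molecules. Per the submitters' processing notes, the tools used were Subread 1.4.6-p2, STAR 2.4.1b and FastQC 0.11.4, and the build was mm10; their settings are not given in the sources used here. Rows of the same symbol were summed (92 of 51826), and the remaining steps ran in Python 3.11.15 with numpy 2.4.6, pandas 2.3.3, scipy 1.17.1 and statsmodels 0.14.6. CPM were computed over all reads in genes. The table rows CT010467.1 and AY036118 took a median of 9.17% and 3.08% of the reads and were kept in the totals. Between plates, a gene was measured when a plate compared had a summed value of 1 CPM or more with reads in 5% or more of its cells, and ratios used 1 CPM added to each value. Shares carry exact Clopper-Pearson 95% intervals, and a count of 0 was read as up to 3 cells. TPM used the exon lengths of the GRCm38 annotation, from which gene positions were also taken. The variability and ratio steps were tested on simulated data. Members and gene lists were chosen with earlier results of these data known. Genes named are mainly the markers, Ptprc, Prox1 and Csf1r, the members of the vessel type lists and the most variable and most even genes. Of each other list up to 6 were to be named by share of cells. Some list genes, such as Erg, Vegfa, Car9 and Top2a, were named outside that rule. Pairs of genes and genes of well C8 were picked after their values were seen. With 1 sample per gate no p-value was computed, and doublets were not called. Each well was taken to hold 1 sorted cell, which was not tested.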

Additional observations from a re-analysis of the deposited data

How the results depend on the processing

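Under the alternative settings of 23 results, 96 values stayed close, 15 moved and 1 turned its sign. Leaving out well C8, chosen after seeing the data, put 7 of the 13 cells of the smaller expression group into a group of 76 and left a group of 6, while 2 groups, 4 groups and list genes kept in each held all 13 together. With at least 2 members in place of 3, 100% of cells carried the tip list and 48.8% the lymphatic list, and at 50 CPM or more 3.57% carried the lymphatic list. With 5 CPM added in place of 1, 1.92% of genes were higher and 1.56% lower than on both GFP+ plates. With no filter on low values, taken over all symbols in the table, the shares were 2.02% and 1.26%, and against macrophages 8.18% higher and 6.10% lower. Ranked by the SD of log2(CPM + 1), 7 of the 20 most variable genes stayed. Within the 70 cells of the largest group, a setting added after seeing the data, Spearman's rho was 0.54 in place of 0.44 for tip with basement membrane, lists that share Nid2, -0.37 for tip with venous, -0.071 for tip with arterial and 0.57 for capillary with tip, and 0.0041 in place of -0.22 for hypoxia with arterial. The causes were not tested. The depth and the number of cells limit rare transcripts: a gene with no read in these 84 cells could still be detectable in up to 3.57% of cells of this gate. No paired analysis was possible because the labels number single cells and tie no cell of 1 gate to a cell of another. Plate, gate and animal cannot be told apart in these samples.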
